A study of Mus musculus with 2 samples.

Results

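The genes examined were 10 components of the MHC class I pathway, which loads peptides onto class I molecules and shows them at the cell surface. They were B2m, H2-K1, H2-D1, Tap1, Tap2, Tapbp, Calr, Pdia3, Erap1 and Nlrc5. They were picked by name from knowledge of the pathway, by matching each Ensembl identifier in the table of FPKM values to its mouse symbol. Of the 10, 9 had a value, among 20330 genes in all. No row matched H2-D1, so its expression was not analysed here, although its promoter window was searched for motifs. All 9 showed expression of at least 1 FPKM in both libraries, a unit in which fragments are divided by transcript length and by sequencing depth.

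The values came from adipose tissue macrophages (ATM) sorted with antibodies to F4/80 and CD11b from visceral fat of C57BL/6 mice after 12 weeks on a high-fat diet. The WT library came from hMRP8cre-;Hif-1αfl/fl;ApoE-/- mice and the KO library from hMRP8cre+;Hif-1αfl/fl;ApoE-/- mice, so that by their labels both were ApoE-/- and carried floxed Hif-1α alleles. Cre was driven by the promoter of human MRP8, which is active in the myeloid lineage and is not restricted to ATM. There was 1 library for each genotype. How many animals went into a library, and their age, are not given in the labels. The differences described here thus compare a single pair of libraries, without replicates and without tests.

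MHC class I molecules consist of a polymorphic heavy chain (in these mice H2-K and H2-D) paired with β2-microglobulin, the product of B2m. Peptides made by the proteasome are carried into the endoplasmic reticulum by the transporter TAP1/TAP2, trimmed there by the aminopeptidase ERAP1, and fitted into the groove by a loading complex of tapasin (Tapbp), calreticulin (Calr) and the oxidoreductase ERp57 (Pdia3). NLRC5 is a transactivator that enters the nucleus and, with DNA-binding factors at the S, X and Y boxes, drives transcription of class I genes. In macrophages the pathway displays peptides from the cell's own proteins and from engulfed material to CD8 T cells.

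Promoter windows from 250 bases before to 50 bases after the start site were taken from RefSeq (GRCm38.p6) by symbol and matched 8 of the 10 genes. Tap2 and Nlrc5 had none. The FPKM values were made on another build, mm9, so these coordinates describe only the printed sequence. The windows of 4 genes are shown. B2m and H2-K1 encode the light and heavy chain and were the most abundant members, Calr carries a motif that was rare among all promoters, and Erap1 was the sole member past 3-fold. Capitals mark matches to the motifs named after them, and the start site, numbered 0, follows the first 250 bases of each window.
B2m, chr2:122147437-122147736, plus strand: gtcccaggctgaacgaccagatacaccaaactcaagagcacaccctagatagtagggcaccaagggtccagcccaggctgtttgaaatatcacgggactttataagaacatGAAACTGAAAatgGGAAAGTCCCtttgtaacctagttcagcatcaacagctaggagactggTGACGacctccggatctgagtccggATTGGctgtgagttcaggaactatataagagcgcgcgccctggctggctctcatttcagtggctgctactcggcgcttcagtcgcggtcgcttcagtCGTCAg
H2-K1, chr17:34000298-34000597, minus strand: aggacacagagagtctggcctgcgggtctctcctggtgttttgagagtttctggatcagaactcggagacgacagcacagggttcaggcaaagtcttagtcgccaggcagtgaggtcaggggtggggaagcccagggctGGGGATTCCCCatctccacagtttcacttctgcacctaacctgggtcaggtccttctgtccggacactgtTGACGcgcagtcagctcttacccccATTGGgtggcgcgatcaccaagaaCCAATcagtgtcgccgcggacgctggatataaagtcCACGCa
Calr, chr8:84846882-84847181, minus strand: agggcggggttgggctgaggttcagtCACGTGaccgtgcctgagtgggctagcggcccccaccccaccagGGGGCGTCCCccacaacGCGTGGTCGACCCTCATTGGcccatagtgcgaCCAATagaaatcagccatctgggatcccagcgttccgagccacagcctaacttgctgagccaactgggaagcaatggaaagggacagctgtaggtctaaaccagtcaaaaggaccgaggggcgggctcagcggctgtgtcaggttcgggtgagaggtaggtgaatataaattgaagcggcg
Erap1, chr13:74639603-74639902, plus strand: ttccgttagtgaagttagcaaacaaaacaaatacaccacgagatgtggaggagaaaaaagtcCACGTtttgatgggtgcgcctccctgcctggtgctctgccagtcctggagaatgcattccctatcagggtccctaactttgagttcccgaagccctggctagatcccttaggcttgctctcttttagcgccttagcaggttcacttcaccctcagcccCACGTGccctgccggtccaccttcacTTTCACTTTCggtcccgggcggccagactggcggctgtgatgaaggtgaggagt

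The motifs were searched on both strands with overlaps allowed. The interferon-stimulated response element (ISRE, TTTC followed after any 2 bases by a further TTTC), bound by IRF and STAT factors, occurred in B2m and Erap1, that is in 2 of 8 windows, and in 3.45% of 32544 promoter windows of the mouse genome. The B2m match, GAAACTGAAA on the printed strand, lay at -139 to -130, and the Erap1 match, TTTCACTTTC, lay across the start site at -4 to 5. The κB site, bound by NF-κB, was in 4 of 8 windows (B2m, H2-K1, H2-D1 and Calr) against 8.49% of all. In H2-K1 a pair of overlapping κB matches formed one block at -111 to -101. The core of the X2 box (TGACG) was in 5 of 8 against 20.9%, and the Y box (CCAAT), bound by NF-Y, in 7 of 8 against 37.4%. Before the start site, B2m, H2-K1 and H2-D1 shared 1 order of these motifs. The κB site came first, then the X2 core, then a Y box on the minus strand. In B2m the X2 core was at -78 to -74 and the Y box at -53 to -49, and in H2-K1 they were at -41 to -37 and -16 to -12. In B2m the ISRE lay farther out than the κB site, and a further X2 core lay after the start site, at 44 to 48. H2-K1 has a second RefSeq start site close by, whose window held the same matches.

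Erap1 had neither an X2 core nor a Y box in its window. The core of the HIF binding site (ACGTG or GCGTG) was in 6 of 8 windows against 44.0% of all windows, and Erap1 held it at -188 to -184 and, on both strands over overlapping bases, at -30 to -25. The endoplasmic reticulum stress element (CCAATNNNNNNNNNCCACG) was found in Calr alone among the 8, at -162 to -144, against 0.12% of all windows. It contains 1 of the Y boxes of Calr and overlaps a HIF core. The interferon-γ activated sequence (TTCNNNGAA) was in none of the 8 and in 8.33% of all. A match says that these letters are present and not that a factor bound there. In the map of motif matches the order κB, X2 and Y before the start site is seen for B2m and H2-K1.

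**Figure D1:**
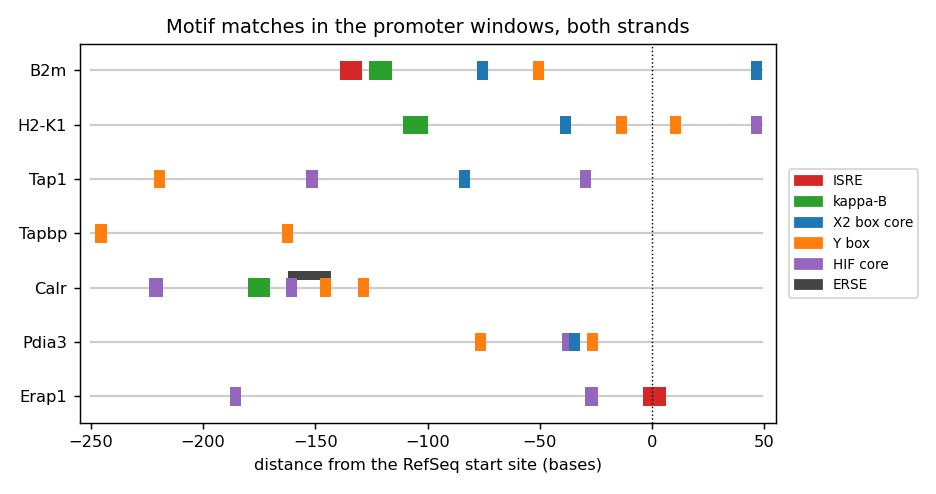
Positions of motif matches in the promoter windows of 7 members with an FPKM value, in bases from the RefSeq start site (dotted line), 1 row a gene and 1 colour a motif. Before the start site B2m and H2-K1 carry κB, X2 and Y matches in this order, and Erap1 carries an ISRE match across the start site.

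The targeted gene was examined before the members. Hif1a had 30.4 FPKM in WT against 20.97 in KO, a value for the whole gene in which the deleted exon was not analysed here. This difference, -0.52 as log2(FPKM + 1), was under 3-fold. Apoe, labelled as knocked out in both groups, nevertheless had 94.3 FPKM in WT against 117 in KO, which goes against an absence of its transcript. Which part of the gene these fragments came from was not analysed here. Depth, estimated from the smallest recurring product of FPKM and length among genes with a single transcript, was about 5.87e+06 fragments in the WT library and 7.47e+06 in the KO library. The genes that define the sort were present, with Adgre1 (F4/80) at 299 and 239 FPKM and Itgam (CD11b) at 128 in both. Of the 6 macrophage markers with a row 3 had a change above 0 and 3 below. The lowest was Fcgr1, at 49.3 and 21.9 FPKM, and the highest Mertk, at 38.0 and 88.1. None of them passed 3-fold, against 27.3% of all genes compared. Of 8 neutrophil markers, 3 (Camp, Ltf and Mmp8) were at 0 in both libraries, and the summed level of the list was 153 FPKM in WT and 513 in KO, with S100a9 at 63.4 and 301 FPKM and Ngp at 0 and 2.61 called higher. All 5 NK cell markers were at 0 in both libraries, and of 6 T cell markers with a row only Cd4 was above 0, at 5.35 and 2.07 FPKM. The 5 fibroblast markers summed to 43.2 and 83.9 FPKM, with Col1a2 at 0.0948 and 4.75 and Pdgfra at 0.0246 and 4.98 called higher. The dendritic cell list, relevant because dendritic cells present peptides on class I with high efficiency, summed to 165 and 169 FPKM, of which Cd209a made up 122 and 131. Its only call was Zbtb46, higher at 0 and 9.45 FPKM, while Xcr1 was at 1.65 and 0.0588 and Clec9a at 0 in both. The B cell list summed to 2.75 and 6.46 FPKM, with Cd79b called higher at 0 and 5.52 but Cd79a at 2.50 and 0.222. The endothelial list summed to 18.4 and 16.1, with Tie1 called lower at 4.12 and 0 but Pecam1 at 6.67 and 8.70. The adipocyte list summed to 95.9 and 93.03, with Cidec called lower at 5.83 and 0 but Lep at 0 and 1.60. Of the mesothelial list only Upk3b was above 0, called higher at 0 and 7.84. Apart from S100a9, these called markers average 1 to 10 FPKM, where 45.6% of all genes passed 3-fold, against 27.3% at any level. Each of them was under 1 FPKM in 1 library, so none of their calls remains when both libraries have to reach 1 FPKM. S100a9 averages 50 to 200 FPKM, where 4.31% passed, and S100a8, at 73.3 and 182 FPKM, was under 3-fold. All 5 neutrophil markers compared and all 5 fibroblast markers had a change above 0. The part of these cells in the results was not tested. In bulk RNA, fewer cells of a type and less RNA per cell cannot be told apart.

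It was asked whether ATM of the myeloid Hif-1α KO differed from WT in the class I pathway. The abundant members had similar levels in the WT and KO libraries, and the only member past a 3-fold difference was the trimming enzyme Erap1, which was lower in KO. Changes are given as log2(FPKM + 1), KO minus WT, a scale on which the pseudocount of 1 understates the change of low genes. Of the 9 members 0 were called higher and 1 was called lower at 3-fold. Among the 10297 genes that reached 1 FPKM in either library, 13.6% were called higher and 13.7% lower, 27.3% in all. The count of members called lower, 1 of 9, thus lay near this background. All 9 members reached 1 FPKM in both libraries. Of the 7586 genes that did so, 429 were called higher and 447 lower, smaller shares than among all genes compared. At a lower threshold of 2-fold the members called were again 0 higher and 1 lower, against 23.1% higher and 22.5% lower of all genes (45.6% together). The median change of the members was -0.13, against 0.03 over all genes compared. Of the members 7 were below 0 and 2 above it, B2m being among those below in the deposited scaling but at 0.02 when the libraries were scaled to the same upper quartile. Of all genes compared, 48.7% were below 0.

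**Figure D2:**
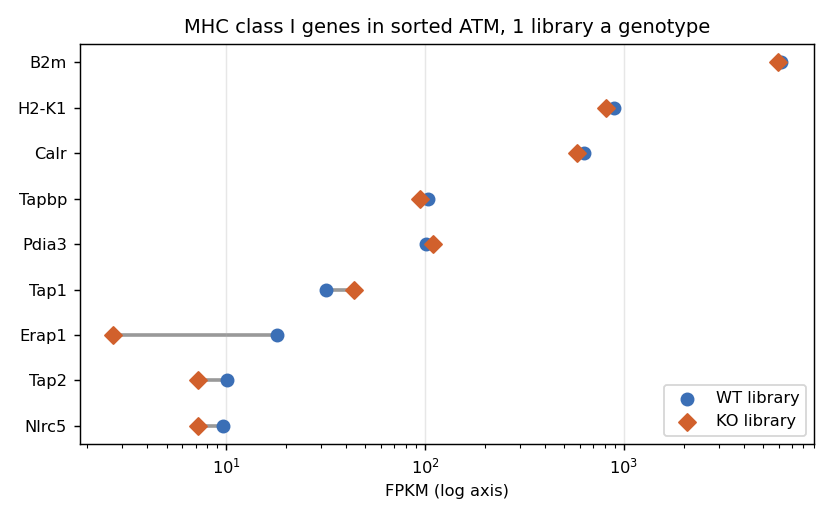
FPKM of each member on a log axis in the WT library (circles) and the KO library (diamonds), joined by a line. The symbols nearly coincide for B2m, H2-K1, Calr, Tapbp and Pdia3, and lie far apart for Erap1, at 18.1 FPKM in WT against 2.69 in KO.

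The class I molecule itself was highly expressed. B2m (ENSMUSG00000060802), the shared light chain, had 6173 FPKM in WT against 5960 in KO and ranked 9 and 8 among all genes. Its change was -0.05, and 0.02 with upper-quartile scaling. H2-K1 (ENSMUSG00000061232), the heavy chain, had 895 FPKM in WT against 815 in KO, ranks 108 and 107. Its change was -0.13. Within a library, where no scaling between libraries enters, the level of B2m was 6.89 times that of H2-K1 in WT and 7.31 times in KO. The light chain also pairs with other class I heavy chains. Of 1570 windows of 50 bases in the H2-K1 transcript, 8.79% also occurred in a transcript of another gene, most of them in H2-D1 (6.94%), and how the authors' tool split such reads is not given in the sources used here. B2m shared 0% of its windows with other genes.

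The members of the loading complex also differed little between the libraries. Calr (ENSMUSG00000003814), the lectin chaperone that holds newly made heavy chains, had 627 FPKM in WT against 584 in KO, a change of -0.10. Pdia3 (ENSMUSG00000027248), which pairs with tapasin through a disulphide bond, was at 101 and 109 FPKM, a change of 0.12. Tapbp (ENSMUSG00000024308), which bridges the heavy chain and TAP, was at 103 and 94.04 FPKM, a change of -0.13. The ratio of H2-K1 to Tapbp was 8.67 in both libraries, and that of Calr to Tapbp was 6.08 in WT and 6.21 in KO. All 5 of B2m, H2-K1, Calr, Pdia3 and Tapbp differed by less than 1.2-fold. For comparison, the middle 90% of the 1021 genes with a mean of 50 to 200 FPKM, where Tapbp and Pdia3 lie, had changes from -1.26 to 1.08, and 4.31% of them passed 3-fold in either direction. For the 299 genes at 200 to 1000 FPKM, where H2-K1 and Calr lie, the range was -0.97 to 0.68 and 0.669% passed.

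The subunits of the peptide transporter were expressed at unequal levels and had changes of opposite sign, neither past 3-fold. Tap1 (ENSMUSG00000037321) had 31.8 FPKM in WT against 43.9 in KO, a change of 0.45. Tap2 (ENSMUSG00000024339) had 10.04 FPKM in WT against 7.21 in KO, a change of -0.43. TAP works as a heterodimer of 1 chain each. The ratio of Tap1 to Tap2 was 3.17 in WT and 6.10 in KO, so that the ratio itself was 1.92 times as large in KO. Single genes at these levels varied widely, since 16.3% of the 3572 genes averaging 10 to 50 FPKM and 45.6% of the 4790 genes at 1 to 10 FPKM passed 3-fold. An estimated 520 and 913 fragments lay behind the values of Tap1 and 203 and 185 behind those of Tap2, and the transcripts shared under 1% of their windows, 0.861% for Tap1.

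Erap1 (ENSMUSG00000021583) had the largest difference of the members. ERAP1 cuts residues from the amino end of peptides until they have the length that class I prefers. Its level was 18.1 FPKM in WT and 2.69 in KO, 6.72-fold lower in KO by the FPKM ratio and 5.17-fold on the scale with the pseudocount. The change of -2.37 lay below the middle 90% of genes averaging 10 to 50 FPKM, which ran from -2.14 to 1.96, and 8.51% of those genes were called lower. The mean level of Erap1 was just above the lower edge of this range, and among genes at 1 to 10 FPKM the same change lies inside the middle 90%, from -3.02 to 3.06, with 22.4% called lower. Erap1 ranked 3383 in WT and 7861 in KO. The estimate was 599 fragments for WT and 113 for KO if the annotated length of 5644 bases applies, and 0% of the windows of its transcript occurred in another gene. Its ratio to Lnpep, a related aminopeptidase that trims peptides in endosomes and was at 16.97 and 20.3 FPKM, was 1.06 in WT and 0.132 in KO. Whether the difference would recur in another pair of libraries cannot be told from 1 library a genotype.

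Nlrc5 (ENSMUSG00000074151) was the lowest member in WT, at 9.57 FPKM, and was at 7.23 FPKM in KO. Its change of -0.36 lay well inside the middle 90% of genes at 1 to 10 FPKM, from -3.02 to 3.06. The order of the members by level was B2m, H2-K1, Calr, then Tapbp and Pdia3, then Tap1 in both libraries. Tapbp and Pdia3 changed places between the libraries and were within 1.2-fold of each other. Erap1 was above Tap2 and Nlrc5 in WT and below both in KO. The plot of change against level shows that the members with over 50 FPKM lie on the narrow part of the distribution around 0.

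**Figure D3:**
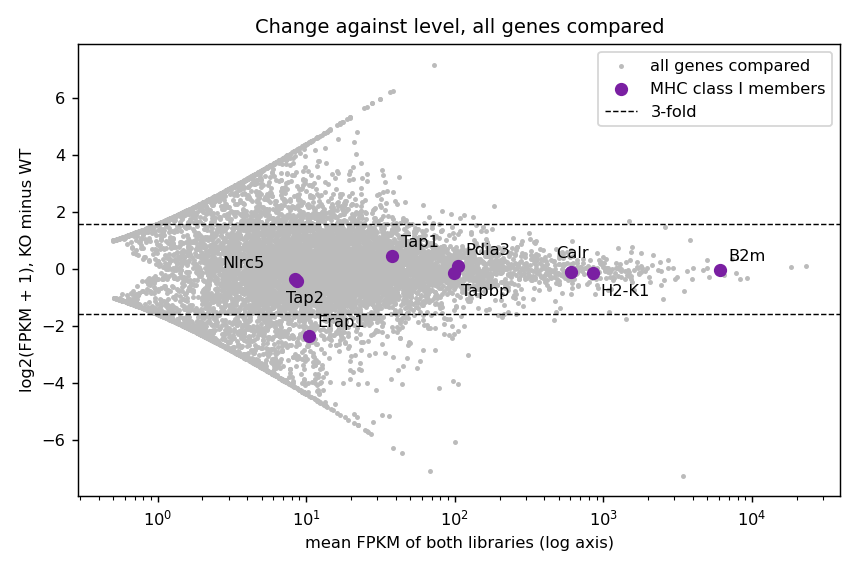
Change as log2(FPKM + 1), KO minus WT, against the mean FPKM of both libraries on a log axis, for the 10297 genes compared (grey) and the 9 members (purple), with dashed lines at 3-fold. Erap1 is the one member beyond a dashed line.

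Other class I and class I-like heavy chains were compared as a list of 21, of which 17 had a value and 11 were compared. Of these 0 passed 3-fold, against 27.3% of all genes compared, 7 were above 0 and 4 below, and the median was 0.19. The most abundant of the list, though not the one with the largest change, was Fcgrt, at 359 FPKM in WT against 504 in KO. Fcgrt encodes the neonatal Fc receptor, which pairs with β2-microglobulin and binds IgG. H2-T23 (Qa-1), a ligand of inhibitory receptors on NK and T cells, was at 89.3 and 65.01 FPKM. H2-Q7 (Qa-2) was at 49.9 and 66.1 FPKM and H2-Q4 at 68.4 and 45.3. These genes are near-identical copies of each other in part, with 34.9% of the windows of H2-Q7, 28.8% of H2-T23 and 24.3% of H2-Q4 found in another gene, and their values are therefore uncertain.

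Further genes of loading and glycoprotein folding had a median near 0, with 1 call, Tapbpl. Of 11 genes 4 were above 0 and 7 below, 1 was called higher and 0 lower, against 13.6% and 13.7% of all genes compared, so that the count was no higher than the background. The median was -0.03 in the deposited scaling, 0.01 when scaled to the same sum and 0.04 when scaled to the same upper quartile. Tapbpl encodes TAPBPR, a tapasin relative that edits the peptides on class I, and had 2.84 FPKM in WT against 17.8 in KO, a change of 2.29. Its mean level lay just above the lower edge of the range of 10 to 50 FPKM. In that range 16.3% of genes passed 3-fold, and at 1 to 10 FPKM 45.6% did. The ratio of Tapbp to Tapbpl was 36.4 in WT and 5.29 in KO. Of the general folding factors, the Hsp70-type chaperone Hspa5 (BiP) stood at 372 FPKM in WT against 455 in KO, the disulphide isomerase P4hb at 143 and 213, the Hsp90-type chaperone Hsp90b1 at 138 and 169, and Canx (calnexin), the membrane-bound counterpart of calreticulin, at 100.2 and 99.2. The lowest changes of the list were those of the glycoprotein sensor Uggt1, at 13.5 FPKM in WT against 4.90 in KO, and the disulphide isomerase family members Pdia6, at 49.2 and 24.8, and Erp29, at 98.6 and 62.2. The ratio of Calr to Canx was 6.26 in WT and 5.88 in KO.

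Peptide supply was examined in the proteasome and cytosolic steps. Of the 5 immunoproteasome and PA28 genes only Psmb9 passed 3-fold, at 5.18 FPKM in WT against 31.05 in KO, a change of 2.38. This is 1 of 5, against 27.3% of all genes compared and 16.3% of those averaging 10 to 50 FPKM, where Psmb9 lies. The others were the PA28 subunits Psme1 at 112 and 218 FPKM and Psme2 at 115 and 62.6, and the catalytic subunits Psmb10 at 88.8 and 60.03 and Psmb8 at 69.2 and 26.7, and the median of the list was -0.56. Of 11 genes of peptide trimming and translocation 10 were compared, 2 called higher and 2 lower, against 13.6% and 13.7% of all genes compared. Of the calls lower, Lap3 was compared only through its WT value, so that call is lost when both libraries have to reach 1 FPKM. By mean level, Npepps and Sec22b lie at 10 to 50 FPKM, where 16.3% of genes passed in either direction, Lap3 at 1 to 10 (45.6%) and Sec61b at 50 to 200 (4.31%). Sec22b lies just above the lower edge of its range, next to the range where 45.6% passed. The list had a median of -0.12 that became 0.23 when both libraries had to reach 1 FPKM and 0.24 at a mean of 5 FPKM or more. Sec61b, a subunit of the translocation channel, fell from 221 to 26.1 FPKM, a change of -3.03, beside Sec61g at 279 and 132 and Sec61a1 at 38.5 and 50.7. The aminopeptidase Lap3 was at 3.63 FPKM in WT and listed at 0 in KO. Npepps, a cytosolic aminopeptidase, was at 6.27 and 22.97 FPKM. Sec22b, a vesicle protein linked to cross-presentation, was at 3.10 and 17.5. Nrd1 had 31.96 FPKM in WT against 22.9 in KO.

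The factors that act on class I promoters were compared last. Of 14 regulators 3 were called higher and 0 lower, against 13.6% and 13.7% of all genes compared, with a median of 0.09 that became -0.12 when both libraries had to reach 1 FPKM or their mean 5 FPKM. All 3 genes called higher were under 1 FPKM in WT and were compared only through their KO value, so none of these calls remains when both libraries have to reach 1 FPKM. Rfxap, a subunit of RFX, was listed at 0 in WT, against 10.1 FPKM in KO. Rfxank, of the same complex, had 0.589 FPKM in WT against 6.92 in KO, and the DNA-binding subunit Rfx5 was at 2.86 and 4.64, under 3-fold. Nfyb, of NF-Y, was at 0.332 and 6.11 FPKM, whereas Nfya was at 39.4 and 28.3 and Nfyc at 11.9 and 19.8. Genes at 1 to 10 FPKM passed 3-fold in 45.6% of cases, so that these calls are of the kind seen in many genes at that level. The abundant regulators differed less, with Irf1 at 114 FPKM in WT against 92.2 in KO, Rela at 88.1 and 88.4, Nfkb1 at 43.04 and 48.8 and Irf2 at 35.2 and 42.7. The plot by list shows the called genes of each group with their names.

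**Figure D4:**
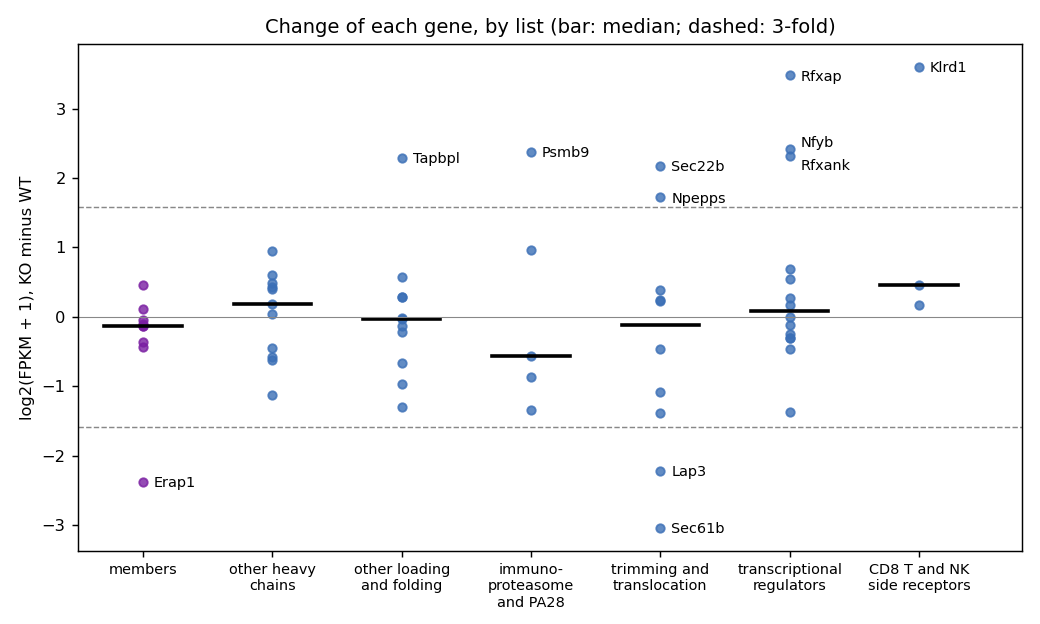
Change as log2(FPKM + 1), KO minus WT, of each gene compared, by list, with the median as a bar, dashed lines at 3-fold and the names of genes past them. Members cluster near 0 except Erap1, and the regulators include Rfxap, Nfyb and Rfxank above the upper line.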

How the data were processed

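Poly(A) RNA of sorted ATM was sequenced, 1 library for each genotype. The authors deposited a single table of FPKM values, and the submitters' processing notes name CASAVA 1.8.2, TopHat2 2.0.9, Cufflinks 2.2.1 and mm9. The annotation, filters and treatment of reads that match several genes are not given in the sources used here. FPKM values are already scaled by length and depth, so no count test was used. The column labelled mut was read as the KO library.

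Of 20749 rows, 401 repeated another in full and were dropped, and 18 second values for an identifier were summed. Symbols were found for 98.5% of 20330 identifiers in GENCODE M21. Genes reaching 1 FPKM in either library were compared as log2(FPKM + 1), and a 3-fold difference was called, the fold used by the study. Fragments were estimated from the smallest recurring product of FPKM and length, 0.170 FPKM x kb in WT (19 genes within 15% of it) and 0.134 in KO (21 genes). PCR copies are not independent molecules, so these estimates bear on counting error alone. Lengths were the median over coding transcripts of the GENCODE basic set.

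The members, lists and motifs were chosen with earlier results of these data known. Named genes were all members, and in each pathway list those past 3-fold and up to 4 with the highest mean FPKM. Lnpep, Uggt1, Pdia6, Erp29, Rfx5, Nfya and Nfyc fall outside this rule and were named after their values were seen, as were the cell type markers, of which the text names every gene called and a selection of the others. Likeness of patterns was not ranked, since 1 difference per gene exists. The calling code was run on simulated data with counting error only and planted changes larger than 3-fold. That run cannot show how often a gene passes 3-fold between 2 real libraries without a difference in genotype. Python 3.11.15, pandas 2.3.3 and numpy 2.4.6 were used. The alternatives were other pseudocounts, filters, scalings and folds, and the first instead of the summed value for repeated identifiers.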

Additional observations from a re-analysis of the deposited data

How the results depend on the processing

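With 1 library a genotype, no spread between replicates could be measured, and agreement between the libraries was poorest at low FPKM. No paired analysis was possible because there was only a single sample in either group, and for the same reason no replicate could be left out. Under every alternative tried, 0 members were called higher and 1, Erap1, was called lower. The members' median lay between -0.13 and -0.07, and the change of Erap1 between -2.74 and -2.32. Over all genes, the calls higher and lower were 429 and 447 if both libraries had to reach 1 FPKM, and 598 and 646 if their mean had to reach 5, since these filters test fewer low genes. Calling at 2-fold gave 2380 and 2314. The remaining recomputed values, 86 for summaries and 72 for single members, stayed within the allowance, which for a count is a factor of 1.5 and for a change a shift by a 1.5-fold difference in expression on the log2 scale. Small changes could therefore shrink or grow by more than that factor, and B2m and the medians of 3 lists crossed 0 as given beside them. Scaling to the same upper quartile moved the median of all genes from 0.03 to 0.10 and to the same sum to 0.07.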

Other observations

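The genes of the transporter and the immunoproteasome lie side by side in the mouse MHC on chromosome 17, in the order Psmb9, Tap1, Psmb8 and Tap2 in RefSeq (GRCm38.p6). The change was above 0 for the first pair and below 0 for the second pair. It was 2.38 for Psmb9, 0.45 for Tap1, -1.34 for Psmb8 and -0.43 for Tap2. The ratio of Tap1 to its neighbour Psmb9 went from 6.15 in WT to 1.42 in KO, and that of Tap2 to Psmb8 from 0.145 to 0.270.

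Receptors on T and NK cells or on myeloid cells, listed beside the class I pathway, were also looked up. Cd8a and Cd8b1 were listed at 0 in both libraries. Pirb, an inhibitory receptor of myeloid cells that binds class I, had 109.9 FPKM in WT against 124 in KO. Lilrb4a, a related inhibitory receptor for which no binding of class I is claimed here, was at 523 and 720 FPKM. Klrd1 (CD94), a subunit of the NK cell receptor for the class I-like Qa-1, had 11.1 FPKM in KO and was listed at 0 in WT, while the 5 NK cell markers were at 0 in both. Klrd1 was compared only through its KO value, so its call higher is lost when both libraries have to reach 1 FPKM. It averages 1 to 10 FPKM, where 45.6% of all genes passed 3-fold.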
